A study of Saccharomyces cerevisiae with 8 samples.

Results

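The change of transcript levels through the diauxic shift was compared between budding yeast strains that differ in the transcription factor Gcr1. For each gene, the change between 6 h and 12 h in strain S was set against the change over the same time in strain U. The genes were all rows whose mean over the 8 libraries reached 10 FPKM and that held no value of 0, which left 5772 of the 7126 rows of the expression table. FPKM is a count of fragments scaled to the length of the transcript and to the fragments mapped in the library. The difference reported for a gene is the S change minus the U change, each 12 h minus 6 h, on the scale log2(FPKM + 1), so a positive value means that the 12 h level relative to 6 h was higher in S.

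RNA of whole cells of Saccharomyces cerevisiae was sequenced in 8 libraries, 2 each of S at 12 h, S at 6 h, U at 12 h and U at 6 h. Strain S is JHY9200, BY4741 GCR1 (∆4-742), and strain U is JHY9100, BY4741 GCR1 (∆1-574). Every library thus carries an edited GCR1 in the laboratory background BY4741, and an unedited strain was not analysed here. Cultures grew at 30 °C in YPD, a rich medium, with 2% glucose and no other treatment; 12 h samples are labelled as taken after the diauxic shift and 6 h samples as exponential phase.

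Gcr1 is the activator of the glycolytic genes in yeast, and it acts with Gcr2 and with the DNA-binding protein Rap1. Its transcript has an intron, and its spliced and unspliced forms give proteins that differ at the amino terminus. Glycolysis turns glucose into pyruvate, which growing yeast ferments to ethanol. At the diauxic shift glucose runs out, and cells begin to respire the ethanol and to make sugar phosphates through gluconeogenesis, which uses most glycolytic enzymes in reverse.

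The depth of the libraries is unknown, since the table holds FPKM and no counts. Sums of FPKM ran from 1504396 to 1548312 per library. LEU2, URA3 and MET17, which BY4741 lacks, were listed at 0 in all 8 libraries. HIS3, the fourth marker gene mutated in BY4741, was at 68.8 to 283 FPKM in the 8 libraries. STE2, the receptor gene of its mating type, ran from 208 to 1075 FPKM, while MFA1, a pheromone gene of that mating type, was listed at 0 in replicate 2 of S at 12 h and at 151 to 1458 FPKM in the other 7. Genes of the opposite mating type were read as well, SAG1 at 26.63 to 64.45 FPKM and MF(ALPHA)2 at 10.42 to 28.5 FPKM. STE3 was at 2.6 to 8.22 FPKM and MF(ALPHA)1 at 0.61 to 10.39 FPKM. The replicates stood farther apart at 6 h than at 12 h: the standard deviation over genes of replicate 1 minus replicate 2 was 0.34 in S at 12 h, 0.70 in S at 6 h, 0.35 in U at 12 h and 0.58 in U at 6 h (log2). Separate cultures are not named in the labels for the replicates of a group. The p-values therefore cover only the spread between these libraries, which may be technical.

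Most of the response to the diauxic shift was shared by the strains. In S, 1985 of the 5772 genes rose (34.4%) and 1416 fell (24.5%) at an adjusted p under 0.05 with limma. In U, 1984 rose (34.4%) and 1347 fell (23.3%). Of these, 1854 genes rose and 1300 fell in both strains, and 0 were called in opposite directions. The split of rises and falls depended on the scaling: with median-of-ratios scaling 1601 rose and 1741 fell in S and 1562 rose and 1726 fell in U, and with quantile normalization the numbers were 1615 and 1773 in S and 1590 and 1760 in U. Because FPKM is relative to each library's total, an altered share of a transcript and an altered amount of RNA per cell cannot be told apart.

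Set against this shared response, the difference between the strains was small for nearly all genes. Its median was -0.03, its quartiles were -0.12 and 0.06, and 5733 genes (99.3%) lay within 1 of 0. It was above 1 for 25 genes and below -1 for 14, above 2 for 9 and below -2 for 0. The median shifted to 0.0003 with median-of-ratios scaling and to -0.0075 with quantile normalization. The standard error of the difference had a median of 0.31, and the 95% interval lay inside -1 to 1 for 3611 genes (62.6%). For the others a difference of that size was not bounded by these libraries in this fit.

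No gene passed the test of the difference. At an adjusted p under 0.05 (limma, adjusted over the 6339 rows fitted), 0 of the 5772 genes were called (0%), and the lowest adjusted p was 0.0531, for CDC19. Before adjustment 24 genes had a p under 0.05 with a positive difference (0.416% of 5772) and 10 with a negative one (0.173%). These 34 genes are far fewer than the share of 0.05 awaited if no gene differed and the spread were well estimated. The fit had no replicate block, so replicate gaps shared by S and U entered its spread (r = 0.87 at 6 h and 0.73 at 12 h). Whether this made the test of the difference too strict was not tested. Limma was the tool used throughout, and under its other settings the count of calls ran from 0 to 4. Each of the 5 rows called in the whole fit (0.0789% of 6339) had libraries listed at 0 and was therefore not among the genes analysed. The genes with the highest differences are described below by their values, with the statement that they missed the test.

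**Figure D1:**
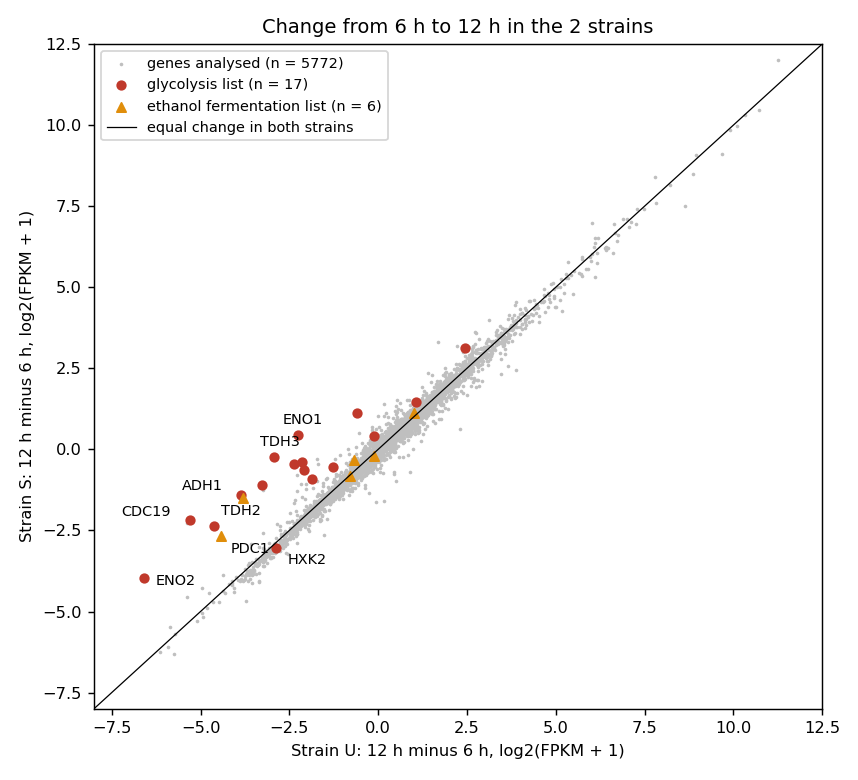
Change in strain S (vertical axis) against the change in strain U (horizontal axis), each 12 h minus 6 h on log2(FPKM + 1), for the 5772 genes analysed. Grey points lie close to the line of equal change (r = 0.99 across genes); 16 of the 17 glycolysis genes lie above it, and HXK2 lies just below.

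The far end of the distribution was made up of glycolytic and fermentation genes. Of the 12 genes with the highest differences among those with an unadjusted p under 0.05 (limma), 10 belong to the lists of glycolysis and ethanol fermentation. The same holds for 8 of the 9 genes above 2, counted over all genes. In the glycolysis list all 17 genes were analysed, and their median difference was 1.74, with a range of -0.16 to 3.13, beside -0.03 over all genes. The difference was positive for 16 of 17, above 1 for 11, and had an unadjusted p under 0.05 for 12, all of them positive; 0 passed after adjustment. For 12 of the 17 every S change, taken over the 4 pairings of a 12 h with a 6 h library, lay above every U change, as it did for 71 of all 5772 genes (1.23%). Within the list 13 genes fell in U, with a median change of -2.27, and 7 fell in S, with a median change of -0.56. Over all 5772 genes 23.3% fell in U and 24.5% in S. The strains stood apart at 12 h, where the median of S minus U over the list was 1.87, and much less so at 6 h, where it was 0.14.

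CDC19, which encodes the main pyruvate kinase and catalyses the last step of glycolysis, had the highest difference. It is a gene without introns at chrI:71786-73288 on the plus strand (sacCer3). It read 416 and 378 FPKM in S at 12 h, 1785 and 1800 FPKM in S at 6 h, 25.95 and 41.2 FPKM in U at 12 h, and 1279 and 1384 FPKM in U at 6 h. The groups did not overlap, and the 12 h libraries of U were the lowest. The 12 h mean was 22.1% of the 6 h mean in S and 2.52% in U. CDC19 fell in both strains, by 2.17 on the log2 scale in S (adjusted p = 0.000645, limma) and by 5.30 in U (adjusted p = 4.23e-05). The difference was 3.13 (SE 0.32, 95% interval 2.35 to 3.91), which corresponds to 8.75-fold; its adjusted p of 0.0531 missed the threshold.

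That call depended on the setting. CDC19 passed in 4 of the 20 alternatives: with a pseudocount of 5 (adjusted p = 0.0453), with quantile normalization (0.0338), without replicate 1 of U at 12 h (0.0436) and without replicate 2 of U at 12 h (0.0137). Its adjusted p ran from 0.0137 to 0.907 over all alternatives, while the difference itself lay between 2.81 and 3.45 with any 1 library left out. Without replicate 2 of U at 12 h, FBA1 (0.0113), ADH1 (0.0492) and the row YAL037C-B (0.0113) passed as well. YAL037C-B also passed without replicate 1 of U at 12 h (0.0436).

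**Figure D2:**
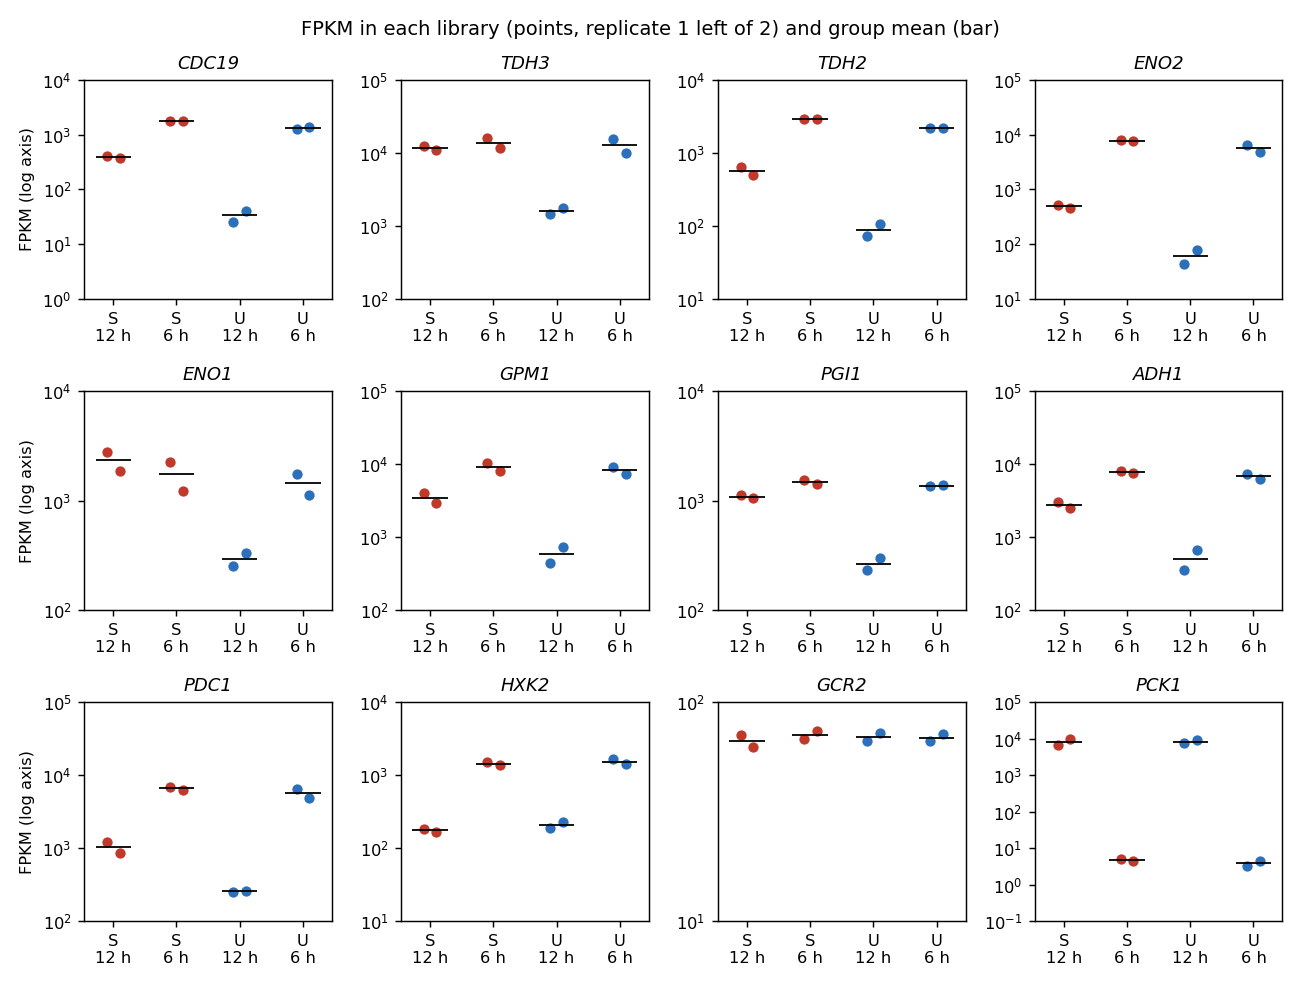
FPKM (log axis, with a range of its own in each panel) in each of the 8 libraries for 12 genes, as points, with the group mean as a bar. In the 9 panels of glycolytic and fermentation genes before HXK2 the U libraries at 12 h are lowest, whereas in the panels of HXK2, GCR2 and PCK1 they are not.

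Stretches of DNA before the start codon are shown for the genes of these lists in which the core letters of a Gcr1 site (CTTCC, or GGAAG on the other strand) and of a Rap1 site (ACACCC, or GGGTGT) lay within 30 bases of each other. Each runs 5′ to 3′ along the gene's own strand, with both motifs in capitals, and was read from the R64 genome (sacCer3). The CDC19 stretch, chrI:71093-71192 on the plus strand, begins 693 bases before the start codon. The PGI1 stretch is chrII:614212-614311, the ADH1 stretch chrXV:161234-161333 and the TPI1 stretch chrIV:556783-556882, all on the minus strand, and none of the 4 holds an annotated gene.
CDC19: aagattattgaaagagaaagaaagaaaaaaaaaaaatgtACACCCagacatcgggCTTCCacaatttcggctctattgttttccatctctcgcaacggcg
PGI1: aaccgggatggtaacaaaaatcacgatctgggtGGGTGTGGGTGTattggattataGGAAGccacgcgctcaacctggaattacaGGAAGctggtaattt
ADH1: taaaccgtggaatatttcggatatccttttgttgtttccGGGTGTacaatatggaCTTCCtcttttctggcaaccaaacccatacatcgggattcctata
TPI1: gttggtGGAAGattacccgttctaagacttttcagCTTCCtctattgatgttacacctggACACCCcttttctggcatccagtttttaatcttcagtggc

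These letters are short and common. In the 800 bases before the start codon, on either strand, CTTCC was found before 15 of the 17 glycolysis genes (88.2%) and before 4920 of 5997 protein-coding genes (82%). A pair with ACACCC within 30 bases was found before 3 of the 17 glycolysis genes (17.6%), before 1 of the 7 fermentation genes, and before 115 of the 5997 (1.92%). The 2 motifs do not overlap each other in the stretches printed. TDH3, which has the fourth-highest difference, holds 0 copies of CTTCC in this window, as does HXK2. A match of letters is a description and does not show binding.

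The enzymes of the lower part of glycolysis, which handle the 3-carbon compounds, came next. TDH3, the most abundant glyceraldehyde-3-phosphate dehydrogenase, read 12513 and 10856 FPKM in S at 12 h, 15757 and 11822 FPKM in S at 6 h, 1482 and 1774 FPKM in U at 12 h, and 15494 and 9875 FPKM in U at 6 h. It kept 84.7% of its 6 h mean in S and 12.8% in U, and at 12 h the U libraries lay far below all others. It fell in U by 2.93 (adjusted p = 0.000473) and changed by -0.23 in S (adjusted p = 0.513), and the difference was 2.70 (SE 0.39, adjusted p = 0.215). TDH2, a second copy of the enzyme, read 636 and 503 FPKM in S at 12 h, 2924 and 2912 FPKM in S at 6 h, 72.4 and 106 FPKM in U at 12 h, and 2212 and 2172 FPKM in U at 6 h. Unlike TDH3, TDH2 fell in both strains, by 2.37 in S and by 4.63 in U, with a difference of 2.26 (SE 0.32, adjusted p = 0.215).

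The enolase pair showed the same contrast between copies. Enolase makes phosphoenolpyruvate in glycolysis. ENO1 read 2789 and 1878 FPKM in S at 12 h, 2258 and 1233 FPKM in S at 6 h, 252 and 332 FPKM in U at 12 h, and 1745 and 1120 FPKM in U at 6 h. Its S libraries overlapped between times, while in U both 12 h libraries were below both 6 h libraries; it fell in U by 2.27 (adjusted p = 0.0038) and changed by 0.46 in S (adjusted p = 0.348). ENO2, the copy of fermenting cells, read 528 and 466 FPKM in S at 12 h, 7932 and 7625 FPKM in S at 6 h, 43.1 and 78.0 FPKM in U at 12 h, and 6586 and 4856 FPKM in U at 6 h. It fell in both strains and kept 6.39% of its 6 h mean in S and 1.06% in U. The differences of the copies were 2.72 for ENO1 (SE 0.55) and 2.61 for ENO2 (SE 0.43), with adjusted p of 0.791 and 0.359.

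These copies are near-identical, so their separate values are uncertain. The coding sequences of TDH2 and TDH3 share 95.8% of 999 bases, with a longest identical run of 173 bases, and those of ENO1 and ENO2 share 94.8% of 1314 bases, with a run of 112. Reads were paired, of 100 cycles each. The sources used here do not say how reads that fit both copies were divided.

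GPM1, phosphoglycerate mutase, read 4009.5 and 2951 FPKM in S at 12 h, 10479 and 7980 FPKM in S at 6 h, 444 and 730 FPKM in U at 12 h, and 9221 and 7373 FPKM in U at 6 h. It fell in both strains and kept 37.7% of its 6 h mean in S and 7.07% in U, with a difference of 2.44 (SE 0.44, adjusted p = 0.545). PGK1, phosphoglycerate kinase, read 1903 and 1776 FPKM in S at 12 h, 3097 and 1909 FPKM in S at 6 h, 376 and 669 FPKM in U at 12 h, and 2895 and 1702 FPKM in U at 6 h. The 12 h mean of PGK1 was 73.5% of its 6 h mean in S and 22.7% in U, and the difference of 1.74 had an SE of 0.56. TPI1, triose-phosphate isomerase, had a difference of 1.45 (SE 0.41), falling in U by 2.09 (adjusted p = 0.00186) and changing by -0.64 in S (adjusted p = 0.105). For all 3 genes the 12 h libraries of S lay above those of U, and those of U were the lowest of the 8.

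In the upper part of glycolysis the difference was less even from enzyme to enzyme. PGI1, phosphoglucose isomerase, read 1117 and 1049 FPKM in S at 12 h, 1552 and 1428 FPKM in S at 6 h, 232 and 297 FPKM in U at 12 h, and 1353 and 1388 FPKM in U at 6 h. It kept 72.7% of its 6 h mean in S and 19.3% in U, and its difference of 1.92 had the small SE of 0.24 (adjusted p = 0.135). PFK1 and PFK2, the subunits of phosphofructokinase, had smaller differences, 0.72 (SE 0.24) and 0.95 (SE 0.23), and both fell in both strains. FBA1, the aldolase, read 6485 and 6256 FPKM in S at 12 h, 13960 and 13583 FPKM in S at 6 h, 807 and 2108 FPKM in U at 12 h, and 12387 and 12603 FPKM in U at 6 h. Its 12 h replicates in U stood apart, and the difference of 2.15 lay between 1.45 and 2.84 with any 1 library left out.

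Of the kinases at the entry, HXK2 had like changes in both strains, and the others were poorly bounded. HXK2, the hexokinase of glucose-grown cells, read 185 and 166 FPKM in S at 12 h, 1518 and 1358 FPKM in S at 6 h, 189 and 229 FPKM in U at 12 h, and 1654 and 1407 FPKM in U at 6 h. It fell in both strains, to 12.2% of its 6 h mean in S and 13.7% in U, and its difference of -0.16 had a 95% interval of -0.76 to 0.45. GLK1, the glucokinase, read 2062 and 1687 FPKM in S at 12 h, 724 and 63.1 FPKM in S at 6 h, 1976 and 1618 FPKM in U at 12 h, and 683 and 155 FPKM in U at 6 h. Replicate 2 was far below replicate 1 at 6 h in both strains, and so the difference of 0.66 has an SE of 1.65.

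The remaining 3 genes of the list were bounded poorly too. HXK1, another hexokinase, had a difference of 0.53 (SE 1.55), PYK2, the second pyruvate kinase, 0.41 (SE 1.06), and TDH1, the glyceraldehyde-3-phosphate dehydrogenase of stationary cells, 1.73 (SE 1.19). TDH1 read 1700 and 872 FPKM in S at 12 h, 1290 and 239 FPKM in S at 6 h, 499 and 395 FPKM in U at 12 h, and 1070 and 422 FPKM in U at 6 h. The 12 h libraries of S and U did not overlap for TDH1, while the 6 h libraries did. With 1 library left out, GLK1 ran from -1.09 to 2.41, HXK1 from -1.05 to 2.12 and PYK2 from -0.69 to 1.51.

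**Figure D3:**
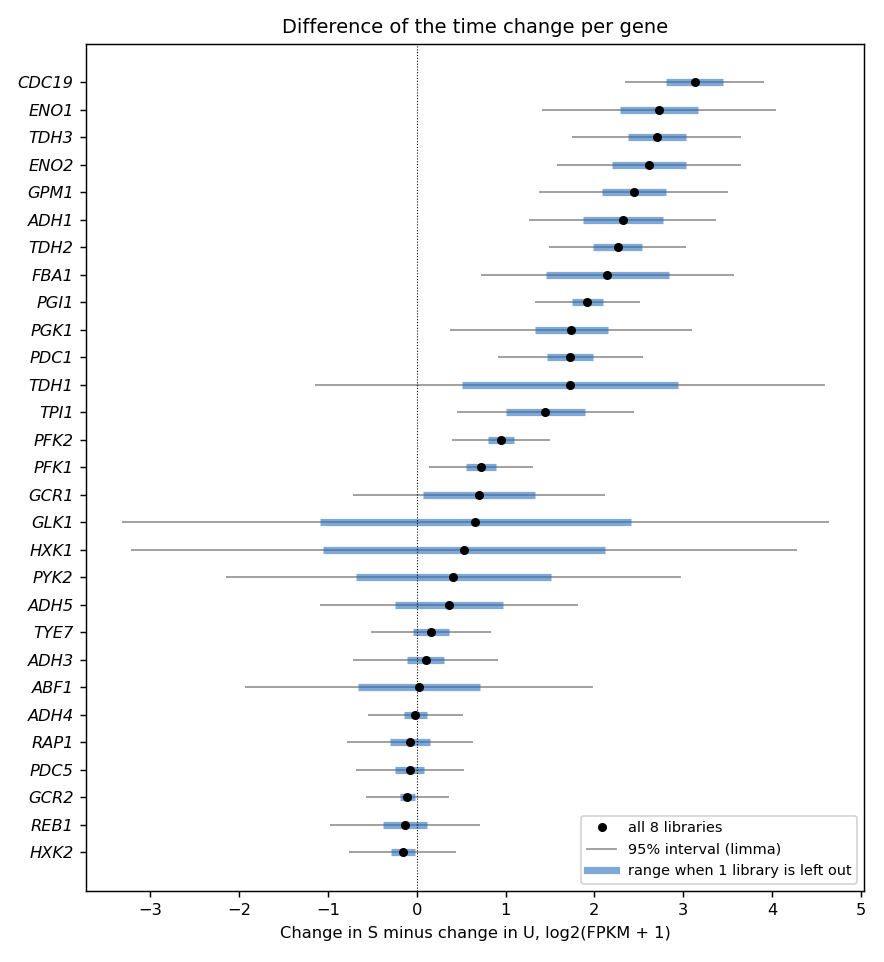
Difference of the time change, S minus U, on log2(FPKM + 1) for the genes of the lists of glycolysis, ethanol fermentation and Gcr1 with its partners. Points are the values from all 8 libraries, thin lines the 95% intervals of limma and thick bars the range when 1 library is left out. CDC19 is highest at 3.13. The bars of GLK1, HXK1, PYK2, ADH5, ADH4, PDC5, ADH3, REB1, ABF1, RAP1 and TYE7 cross 0.

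In the fermentation list 2 genes had a large difference, and the values of the other 4 were smaller. ADH1, the alcohol dehydrogenase that makes ethanol, read 3036 and 2499 FPKM in S at 12 h, 7959 and 7515 FPKM in S at 6 h, 354 and 663 FPKM in U at 12 h, and 7322 and 6304 FPKM in U at 6 h. PDC1, the main pyruvate decarboxylase, read 1237 and 861 FPKM in S at 12 h, 6942 and 6339 FPKM in S at 6 h, 256 and 264 FPKM in U at 12 h, and 6445 and 4794 FPKM in U at 6 h. Both fell in both strains, and both were lowest in U at 12 h. ADH1 kept 35.8% of its 6 h mean in S and 7.46% in U, with a difference of 2.32 (SE 0.44, adjusted p = 0.638). PDC1 kept 15.8% in S and 4.63% in U, with a difference of 1.73 (SE 0.34, adjusted p = 0.728).

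The other members of the fermentation list had differences of 0.36 (ADH5, SE 0.60), 0.10 (ADH3, the mitochondrial enzyme, SE 0.34), -0.02 (ADH4, SE 0.22) and -0.08 (PDC5, SE 0.25). The 95% interval of ADH5 was -1.09 to 1.82, so a difference as large as the 1.73 of PDC1 was not bounded for it. PDC6, a minor decarboxylase, was below the mean of 10 FPKM and was not analysed. The median over the 6 members analysed was 0.23, and 2 had an unadjusted p under 0.05. With 1 library left out this median ran from -0.04 to 0.55, so its sign was not held. ADH3 rose in both strains, by 1.11 in S and by 1.01 in U.

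Among the regulators, the transcript of GCR1 itself read 104 and 89.0 FPKM in S at 12 h, 143 and 58.9 FPKM in S at 6 h, 30.2 and 32.9 FPKM in U at 12 h, and 60.9 and 40.2 FPKM in U at 6 h. Both S libraries at 12 h were above both U libraries, and the 6 h libraries overlapped. The difference was 0.70 with a 95% interval of -0.72 to 2.12. Since different stretches of GCR1 are deleted in S and U, the FPKM of the row covers different transcripts in the strains, and S minus U at one time is not a plain level. The numbering of the deleted positions is not explained in the labels.

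The partners of Gcr1 did not stand apart. GCR2, its coactivator, lay between 62.6 and 73.9 FPKM in all 8 libraries, with a difference of -0.10 (95% interval -0.57 to 0.36). RAP1 fell in both strains, by 0.88 in S and by 0.80 in U, and TYE7, another activator of glycolytic genes, fell by 1.41 in S and by 1.57 in U. Their differences were -0.08 and 0.16, and those of the general regulators ABF1 and REB1 were 0.03 (SE 0.81) and -0.13 (SE 0.35).

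GPI2, a gene of GPI anchor synthesis, was chosen for description after its values were seen, because 968 bases separate it from GCR1. It read 99.8 and 92.1 FPKM in S at 12 h, 50.0 and 42.8 FPKM in S at 6 h, 35.1 and 44.0 FPKM in U at 12 h, and 41.1 and 38.1 FPKM in U at 6 h. It was highest in S at 12 h, and the 3 other groups lay close together. GPI2 rose in S by 1.04 (adjusted p = 0.00293) and changed by -0.01 in U (adjusted p = 0.963), and its difference was 1.05 (SE 0.23, adjusted p = 1).

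The remaining pair among the 12 highest with an unadjusted p under 0.05 (limma) were rows that the R64 annotation used here does not hold. YAL037C-B carries CDC19 as its name in the table and followed it, at 1343 and 1205 FPKM in S at 12 h, 6143 and 6152 FPKM in S at 6 h, 80.8 and 142 FPKM in U at 12 h, and 4502 and 4436 FPKM in U at 6 h. Its difference was 3.10 (SE 0.38, adjusted p = 0.126). YKL153W, next to GPM1 by its systematic name, had a difference of 1.98 (SE 0.48). The sources used here do not say how reads of overlapping genes were counted, so these rows are uncertain.

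**Figure D4:**
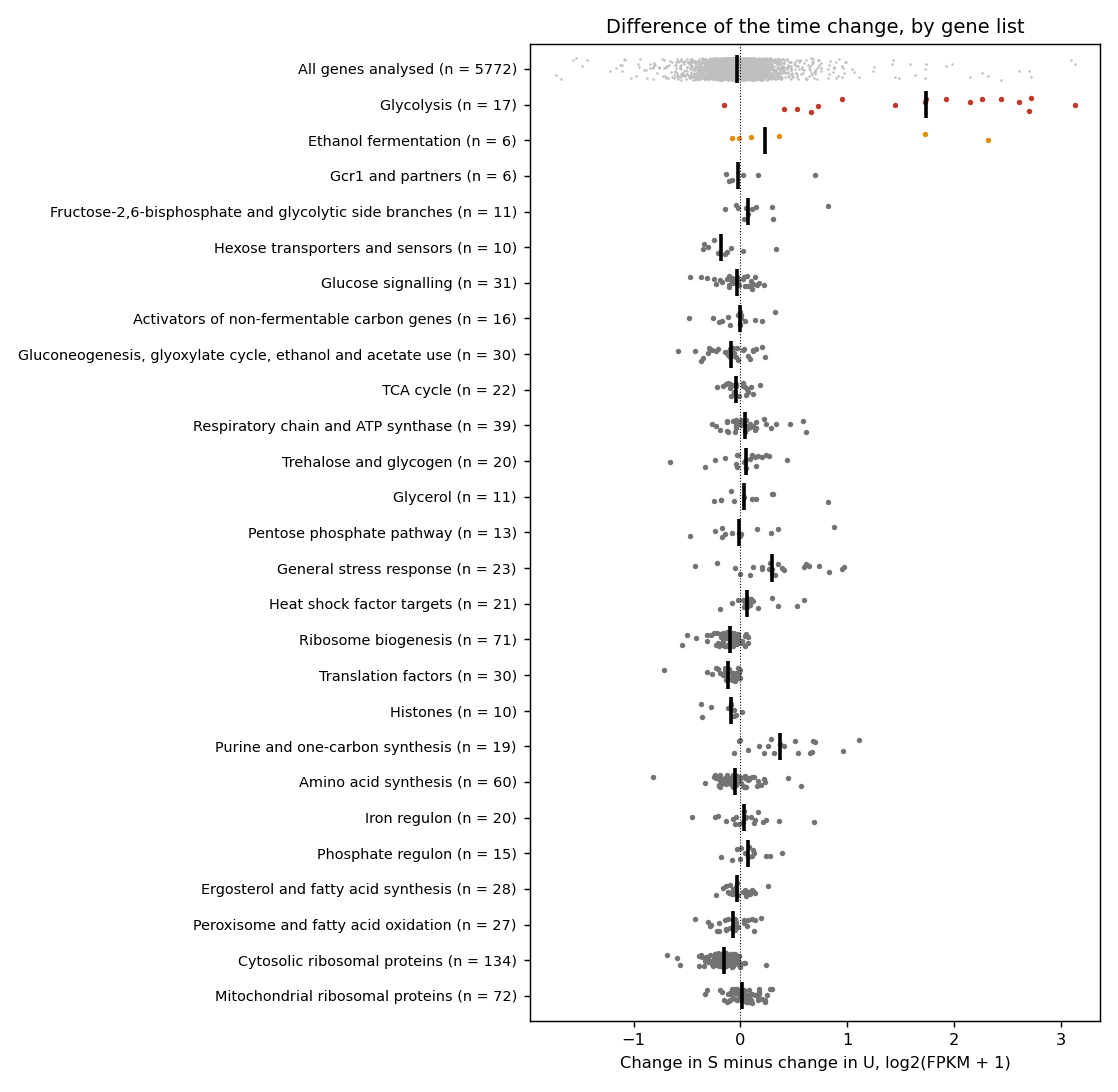
Difference of the time change, S minus U, on log2(FPKM + 1) for each gene (points) of 26 lists and for all 5772 genes analysed (top), with medians as black bars. The glycolysis list has a median of 1.74; the medians of the other lists lie between -0.18 and 0.37.

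With all 8 libraries, the genes of the other metabolic lists of the diauxic shift had median differences near 0. Genes of gluconeogenesis, the glyoxylate cycle and use of ethanol, which feed carbon back to sugar, had median changes of 5.21 in S and 5.17 in U. Of these 30 genes 23 rose in S and 24 in U, beside 34.4% of all genes in each strain. PCK1, the first enzyme committed to gluconeogenesis, read 6778 and 9762 FPKM in S at 12 h, 5.04 and 4.51 FPKM in S at 6 h, 7348 and 9225 FPKM in U at 12 h, and 3.26 and 4.51 FPKM in U at 6 h. Its levels overlapped between strains at each time. The difference was -0.27 (95% interval -1.09 to 0.55) for PCK1 and had a median of -0.09 over the 30 genes. With 1 library left out that median ran from -0.37 to 0.27.

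Respiratory genes rose in both strains. In the list of the respiratory chain and ATP synthase 37 of 39 genes rose in S and 37 in U, with a median change of 3.14 in S and 3.12 in U, and the median difference was 0.04. In the TCA cycle 19 of 22 genes rose in S and 19 in U, and the median difference was -0.04. Over all genes 34.4% rose in each strain. With 1 library left out the median difference ran from -0.28 to 0.33 for the respiratory chain and ATP synthase and from -0.25 to 0.30 for the TCA cycle. Hexose transporters and sensors had a median difference of -0.18 over 10 genes, with 8 of them negative. In each strain 5 of the 10 rose and 4 fell. HXT1, a low-affinity transporter, fell by 4.44 in S and by 4.76 in U and had the highest difference of the list, 0.33. HAP4, the inducible subunit of the activator of respiratory genes, rose by 2.61 in S and by 3.09 in U, with a difference of -0.48 (SE 0.55). That was the lowest of the 16 activators of non-fermentable carbon genes, whose median was -0.0057.

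Growth genes fell in both strains, and most of their small differences were negative. Of 134 genes for cytosolic ribosomal proteins 133 fell in S and 133 in U, beside 24.5% and 23.3% of all genes. Their difference was negative for 131, with a median of -0.15. The median change was -3.17 in S and -2.99 in U. Translation factors had a negative difference for 30 of 30 genes, with a median of -0.12, and ribosome biogenesis for 64 of 71, with a median of -0.10. The difference was negative for 3470 of all 5772 genes. None of the genes of these 3 lists had an unadjusted p under 0.05, and with 1 library left out the median of each list turned its sign. The ribosomal proteins had -0.49 without replicate 1 of U at 12 h and 0.18 without replicate 2 of U at 12 h. Without replicate 1 and without replicate 2 of S at 6 h, ribosome biogenesis had -0.50 and 0.33, and the translation factors had -0.32 and 0.07.

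Apart from glycolysis and fermentation 2 lists had a median above 0.2. Like the median of fermentation, neither held its sign when 1 library was left out. Purine and one-carbon synthesis had a median of 0.37 over 19 genes, with replicate 1 minus replicate 2 at 6 h of -0.05 in S and -0.75 in U (medians). GCV1, of the glycine cleavage system, read 92.8 and 71.6 FPKM in S at 12 h, 223 and 130 FPKM in S at 6 h, 75.4 and 67.8 FPKM in U at 12 h, and 189 and 554 FPKM in U at 6 h, so that replicate 2 of U at 6 h was the highest. The median of the list was 0.95 without replicate 1 of U at 6 h and -0.02 without replicate 2 of U at 6 h. The general stress response had a median of 0.29 over 23 genes, with replicate 1 minus replicate 2 at 6 h of 1.85 in S and 1.04 in U. This median was -0.64 without replicate 2 of S at 6 h and 1.22 without replicate 1 of S at 6 h. Replicate gaps at 6 h were larger still in the heat shock factor targets, at 2.20 in S and 2.33 in U, whose median difference was 0.06; the part of the gaps in the medians was not tested.

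The stress genes had a median change of 3.63 in S and 3.31 in U, and 16 of 23 rose in S and 15 in U, beside 34.4% of all genes in each strain. HSP12, a membrane-protecting stress protein with a change above that median, read 52163 and 36513 FPKM in S at 12 h, 478 and 251 FPKM in S at 6 h, 52870 and 32622 FPKM in U at 12 h, and 499 and 816 FPKM in U at 6 h. It rose in both strains, by 6.97 in S and by 6.02 in U, and the difference of 0.95 had a 95% interval of -0.53 to 2.43.

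On the negative side the differences were smaller. The lowest of all genes was YHR032W-A at -1.73 (SE 0.89), with an unadjusted p of 0.0963, a gene named after its values were seen. Among the 10 genes with a negative difference and an unadjusted p under 0.05, 0 belong to the lists of glycolysis and fermentation. The lowest of these 10 was YCR095W-A, an unnamed gene, at 7.16 and 14.0 FPKM in S at 12 h, 4.68 and 8.02 FPKM in S at 6 h, 45.2 and 33.6 FPKM in U at 12 h, and 7.04 and 7.07 FPKM in U at 6 h. The U libraries at 12 h were above all others; it rose in U by 2.31 (adjusted p = 0.00281) and changed by 0.63 in S (adjusted p = 0.184), with a difference of -1.69 (SE 0.51, adjusted p = 1). PMP1, a small regulator of the plasma membrane proton pump, read 2776 and 3158 FPKM in S at 12 h, 2150 and 2892 FPKM in S at 6 h, 3920 and 4554 FPKM in U at 12 h, and 1771 and 1908 FPKM in U at 6 h. It rose in U by 1.20 (adjusted p = 0.00383) and changed by 0.25 in S (adjusted p = 0.336), with a difference of -0.95 (SE 0.29, adjusted p = 1).

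The other 8 genes had differences of -1.09 (YHR007C-A), -0.85 (YOR366W and YER046W-A), -0.82 (YOR263C), -0.81 (YKR075W-A and YKR047W), -0.64 (THI11, of thiamine synthesis) and -0.59 (YDL242W), each with an adjusted p of 1. Every S change lay below every U change for 120 of the 5772 genes (2.08%), among them 3 of the 10 histone genes. HTA2 and HTB2, which encode histones H2A and H2B, fell in both strains, with differences of -0.36 (SE 0.23) and -0.37 (SE 0.24).

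Near the threshold of 10 FPKM the genes just inside were YOR102W, with a mean of 10.1 FPKM and a difference of -0.42, and YOL103W-A, with a mean of 10.1 FPKM and a difference of -0.06. Just outside were OAR1, with a mean of 9.97 FPKM and a difference of -0.0044, and YDL016C, with a mean of 9.945 FPKM and a difference of -0.43. A further 49 rows reached the mean but were listed at 0 in some library.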

How the data were processed

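The deposited table holds FPKM values that the authors made, 1 per row and library. Per the submitters' processing notes bcl2fastq 1.8.2, FastQC 0.10.1, TopHat2 2.1.1, Cufflinks and the build sacCer3 were used. The sources used here name neither the version and settings of Cufflinks nor the annotation. Depth is unknown, as low FPKM multiplied by gene length showed no steps of whole reads, so no counting interval or limit behind a 0 is given.

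Values were taken to log2(FPKM + 1) and not rescaled, and 6339 rows averaging at least 1 FPKM were fitted. A fit of limma 3.58.1 with a mean-variance trend (R 4.3.3) to the 4 groups gave the change in each strain and the difference of these changes, with 4 residual degrees of freedom and 2.33 from the prior. Two-sided p-values received Benjamini-Hochberg adjustment over the 6339 rows, and genes were called under 0.05. Fold changes are on the log2(FPKM + 1) scale, which understates changes of low genes. Results are given for the 5772 genes with a mean of at least 10 FPKM and no 0. The analysis was also run on simulated data with independent noise in each library. Replicate gaps shared by S and U were not simulated, so that run does not check the test of the difference under such gaps.

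Named were called genes, then up to 12 genes per direction with an unadjusted p under 0.05, all genes of the lists of glycolysis, fermentation and Gcr1 with its partners, and up to 4 per other list. The genes and the 26 lists were chosen with earlier results of these data known, so list counts and medians are descriptions. By locus tag, 5390 of the 5772 genes had an entry in the R64 annotation and 382 had none. Tables were made with Python 3.11.15 and pandas 2.3.3. 17 alternatives were planned, among them other pseudocounts, filters and scalings, a replicate block and each library left out, and 3 were added after seeing the data.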

Additional observations from a re-analysis of the deposited data

Results flagged for a closer look

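5 rows passed the test of the difference of the time change (limma, adjusted over 6339 rows), and every one of them had at least 2 libraries listed at 0, so the values below depend on the pseudocount and are no bounds. snR18, a small nucleolar RNA, had a difference of 12.09 (adjusted p = 1.45e-05), as it was listed at 0 in 6 libraries and at 4386 and 4361 FPKM in U at 6 h. YCR038W-A had a difference of 10.24 (adjusted p = 5.39e-05), at 33.7 and 33.8 FPKM in S at 12 h, 0 in S at 6 h and in U at 12 h, and 33.7 and 33.8 FPKM in U at 6 h. YMR272W-A had a difference of 6.12 (adjusted p = 0.00506), at 0 in both S libraries at 6 h and between 124 and 308 FPKM in the other 6. CPP3 had a difference of -3.76 (adjusted p = 0.00506), at 0 in both U libraries at 6 h and 8.80 to 30.6 FPKM elsewhere. PLS1 had a difference of -5.79 (adjusted p = 0.0112), at 58.8 and 50.4 FPKM in S at 6 h and at 0 in the other 6. The table holds no counts behind these values of 0.

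A pattern of opposite order was seen in 5 of the 5772 genes analysed. Both S libraries at 12 h were below both at 6 h, while both U libraries at 12 h were above both at 6 h. The pattern was not tested over genes, and in none of the 5 did the change in either strain pass. SIR3 was barely separated in U, at 17.04 and 15.62 FPKM at 12 h and 15.47 and 15.42 FPKM at 6 h. YAL056C-A had a difference of -0.59, YDR133C of -0.52, YDR464C-A of -1.17 and SIR3 of -0.31, each with an adjusted p of 1; these 4 were named after their values were seen. YOR263C read 11.7 and 10.4 FPKM in S at 12 h, 13.1 and 13.2 FPKM in S at 6 h, 16.0 and 11.1 FPKM in U at 12 h, and 9.96 and 7.30 FPKM in U at 6 h. Its difference of -0.82 missed the test (adjusted p = 1), and in neither strain did its change pass.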

How the results depend on the processing

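With 2 libraries per group and unknown depth, the number of genes called moved with single libraries. The difference gave 0 calls except with a pseudocount of 5 (1), quantile normalization (1) and when a library was left out (0 to 4: 2 without replicate 1 and 4 without replicate 2 of U at 12 h); a lone library was then assumed to vary like the other groups. Genes whose change in time was called numbered 3401 in S (2207 to 3521 with 1 library left out, 2207 without replicate 1 of S at 12 h) and 3331 in U (2215 to 3581, 2215 without replicate 1 of U at 12 h). The median difference of the glycolysis list was 1.36 to 2.17 with 1 library left out, 1.99 with quantile normalization, 2.00 without both 6 h libraries of number 1 and 1.78 without both of number 2, and both of these left 0 genes called.

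Replicate numbers are not said in the labels to pair samples, although replicate 1 minus replicate 2 in S correlated with that in U across genes (r = 0.73 at 12 h and 0.87 at 6 h). With the number as a replicate block the difference again gave 0 calls, and with a replicate block within each time also 0; called changes in time then numbered 3644 and 4195 in S and 3588 and 4158 in U. These blocks moved no gene's difference.

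Signs changed where the difference was near 0 or the 6 h replicates stood apart. Without both 6 h libraries of number 2, GLK1 read -0.024, HXK1 -0.27, ADH3 -0.13 and ABF1 -0.11; without both of number 1, PDC5 read 0.048. ADH4 read 0.019 with median-of-ratios scaling and 0.015 with quantile normalization. With 1 library left out, ranges crossed 0 for GLK1 (-1.09 to 2.41), HXK1 (-1.05 to 2.12), PYK2 (-0.69 to 1.51), ADH5 (-0.24 to 0.97), ADH4 (-0.15 to 0.12), PDC5 (-0.25 to 0.084), ADH3 (-0.11 to 0.31), REB1 (-0.38 to 0.12), ABF1 (-0.66 to 0.71), RAP1 (-0.30 to 0.14) and TYE7 (-0.048 to 0.37). The cause was not tested.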
